A study of Mus musculus with 16 samples.

Results

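The genes described here encode 10 major heat shock proteins of the cytosol and the mitochondrial matrix, namely Hspb1, Hspd1, Hspe1, Hsp90aa1, Hsph1, Dnaja1, Dnajb1, Hspa8, Hspa1b and Hspa1a. They were selected by exact gene symbol, and all 10 were present among the 25803 genes of the deposited tables and among the 14488 genes with enough counts to be tested. RNA was sequenced from bulk liver of male mice that had received a high-fat diet for 12 weeks. The mice were controls or carried a liver knockout (LKO) of Cpt1a, whose product prepares long-chain fatty acids for entry into mitochondria. Livers were taken after a 16 h fast (4 fasted control and 4 fasted LKO libraries) or after a 16 h fast and 6 h of refeeding (4 refed control and 4 refed LKO libraries). The driver of the knockout, the alleles of the controls, the strain, the age at collection and the time of day are not given in the sources used here, so the refeeding contrast and the hour of collection cannot be told apart. The labels number the samples within a group without saying that each is a separate animal, and p-values measure only the spread between these libraries. Libraries are called by the codes of the deposited count columns, S40 to S43 for fasted control, S44 to S47 for fasted LKO, S48 to S51 for refed control and S52 to S55 for refed LKO.

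Heat shock proteins are molecular chaperones that bind unfolded or partly folded proteins. HSP70 proteins (Hspa8, Hspa1a, Hspa1b) work with J-domain partners (Dnaja1, Dnajb1) that deliver substrates and with exchange factors such as Hsph1 that release the nucleotide, while HSP90 (Hsp90aa1) completes the folding of kinases and steroid receptors, the small heat shock protein Hspb1 holds unfolding proteins in a soluble state, and Hspd1 with its lid Hspe1 forms the folding chamber of the mitochondrial matrix. Hspa8 is made at all times, whereas Hspa1a and Hspa1b are the classical genes induced by heat through heat shock factor 1, which binds arrays of the unit nGAAn in inverted repeats.

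The promoters of 5 members that hold, or share, matches to such repeats are shown. Hsph1 and Dnaja1 also held matches, described below, and their windows are not shown. Sequences are from RefSeq on GRCm38.p6, written 5′ to 3′ on the strand named, with matches to GAANNTTC, TTCNNGAA or their longer arrays in capitals. For Hspa1a (chr17:34972157-34972406, minus strand) and Hspb1 (chr5:135887769-135887918, plus strand) the stretch lies upstream of the gene's start. The same holds for Hspa1b (chr17:34959239-34959488, minus strand), whose 250 bases were identical to those of Hspa1a at 247 positions (98.8%). Hspd1 and Hspe1 are transcribed in opposite directions. The region between the Hspe1 start and a RefSeq start of Hspd1 is shown whole on the plus strand, the strand of Hspe1 (chr1:55087933-55088147). Another RefSeq start of Hspd1, with the window chr1:55088194-55088493, lies outside it.
Hspa1a: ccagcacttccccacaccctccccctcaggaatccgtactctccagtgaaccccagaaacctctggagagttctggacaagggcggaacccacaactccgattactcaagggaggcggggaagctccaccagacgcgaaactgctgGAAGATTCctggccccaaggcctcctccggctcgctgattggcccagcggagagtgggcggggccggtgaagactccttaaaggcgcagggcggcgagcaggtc
Hspa1b: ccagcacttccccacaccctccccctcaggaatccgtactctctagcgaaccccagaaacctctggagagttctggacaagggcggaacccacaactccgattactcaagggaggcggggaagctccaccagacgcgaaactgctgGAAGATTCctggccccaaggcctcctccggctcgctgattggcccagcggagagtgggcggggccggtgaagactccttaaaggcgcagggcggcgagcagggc
Hspb1: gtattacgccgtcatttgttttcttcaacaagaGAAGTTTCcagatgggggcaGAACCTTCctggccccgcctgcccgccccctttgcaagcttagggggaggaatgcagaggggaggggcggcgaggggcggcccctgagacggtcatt
Hspd1 and Hspe1: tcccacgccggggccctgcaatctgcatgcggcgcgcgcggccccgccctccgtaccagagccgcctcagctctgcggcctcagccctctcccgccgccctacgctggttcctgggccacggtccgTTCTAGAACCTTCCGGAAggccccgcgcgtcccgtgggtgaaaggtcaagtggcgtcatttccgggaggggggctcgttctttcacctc

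RefSeq windows of 300 bases, 250 before and 50 after each start, were searched for GAANNTTC and TTCNNGAA, both of which read the same on either strand, and for overlapping arrays of 3 or 4 such units on both strands. Windows were found for 8 of the 10 members. Of 32851 windows of all genes, 15.1% held a 2-unit match, 0.603% a 3-unit array and 0.0244% (8 windows) a 4-unit array. The region between Hspd1 and Hspe1 held the 4-unit array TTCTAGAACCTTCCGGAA, whose first base lies at -89 from the Hspe1 start. The window of the other Hspd1 start held no match. Hspb1 held GAAGTTTC at -117 and GAACCTTC at -97, and Hspa1a and Hspa1b each held GAAGATTC at -104. In Hsph1 both windows held TTCTCGAA before the start and the 3-unit array TTCTGGAAAGTTC after it. Of the Dnaja1 windows, 1 of 3 held GAAAATTC, and the 2 windows of Dnajb1 held no match. A match is a run of letters in this window and not a measured binding site.

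The libraries held 14721601 to 24618230 counts over all genes, and TMM factors for composition ran from 0.941 to 1.07. Levels are given as CPM, the counts per 1000000 counts of the library total, scaled by these factors, and differences as log2 fold changes from edgeR's quasi-likelihood test, called where the Benjamini-Hochberg adjusted p over all tested genes was under 0.05. Cpt1a was 487 ± 83.2 CPM (SD, n = 4) in fasted control and 101 ± 17.3 in fasted LKO, 20.7% of control. After refeeding it was 457 ± 137 and 54.2 ± 16.6 CPM, 11.9% of control, and genotypes did not overlap in either state (exact two-sided permutation p = 0.0286, the smallest that 4 against 4 can give). The 8 hepatocyte markers summed to 69518 to 77682 CPM in fasted control and 58156 to 66655 in fasted LKO, which did not overlap, and to 67110 to 88053 in refed control and 59323 to 72764 in refed LKO, which did. Of these 8, 7 had an LKO difference below 0 in each state, with medians of -0.40 when fasted and -0.31 when refed, and 3 fell when fasted (F2, Ttr and Serpina1c). When refed none was called by edgeR or limma-voom and 3 by DESeq2, with 4 at an unadjusted edgeR p under 0.05. The 7 lymphocyte and plasma cell markers summed to 4.42 to 8.39 CPM in the controls and to 15.0 to 39.2 in the LKO groups. Of the 6 tested, all had an LKO difference above 0 in each state, and edgeR called only Jchain. The 4 adipocyte markers summed to 9.81 to 58.1 CPM in fasted control against 0.448 to 9.63 in fasted LKO. When refed they summed to 2.34 to 33.1 in control against 0.520 to 3.46 in LKO, which overlapped. Of these 4, only Cfd had enough counts to be tested. It was called lower by edgeR when fasted (-3.45) and not when refed (-3.18). The part of these differences in the results that follow was not tested, and in bulk tissue fewer cells of a type and less RNA per cell cannot be told apart.

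Per kilobase of the deposited gene length, the scale on which genes can be set side by side, Hspa8 was the most abundant member with 265 ± 49.3 CPM per kb (SD, n = 16). The mitochondrial pair followed at 157 ± 27.8 for Hspd1 and 136 ± 32.2 for Hspe1. Hspb1 (66.8 ± 31.0), Hsp90aa1 (51.4 ± 24.3) and Dnaja1 (35.2 ± 5.68) lay in the middle, ahead of Dnajb1 (12.2 ± 2.94), Hsph1 (7.38 ± 2.45) and Hspa1b (7.11 ± 5.34), with Hspa1a last at 0.319 ± 0.255 CPM per kb. Along this order the ranges over libraries separated at 2 steps, between Dnaja1 (lowest library 23.5) and Dnajb1 (highest 20.2) and between Hspa1b (lowest 1.53) and Hspa1a (highest 0.964). All other neighbours overlapped. The order rests on the deposited lengths, which can exceed the longest transcript in the GENCODE M21 reference. The lengths were 1474 against 964 bases for Hspe1, 2642 against 2423 for Hspd1 and 8629 against 5622 for Dnaja1. The order also rests on how reads that match several genes were counted, which is not given. The share of sequence found in other genes' transcripts differs between members, with the values given below. The span between the highest and lowest library was narrowest for Hspd1 (1.80-fold) and widest for Hspa1b (12.9-fold) and Hspa1a (15.4-fold).

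**Figure D1:**
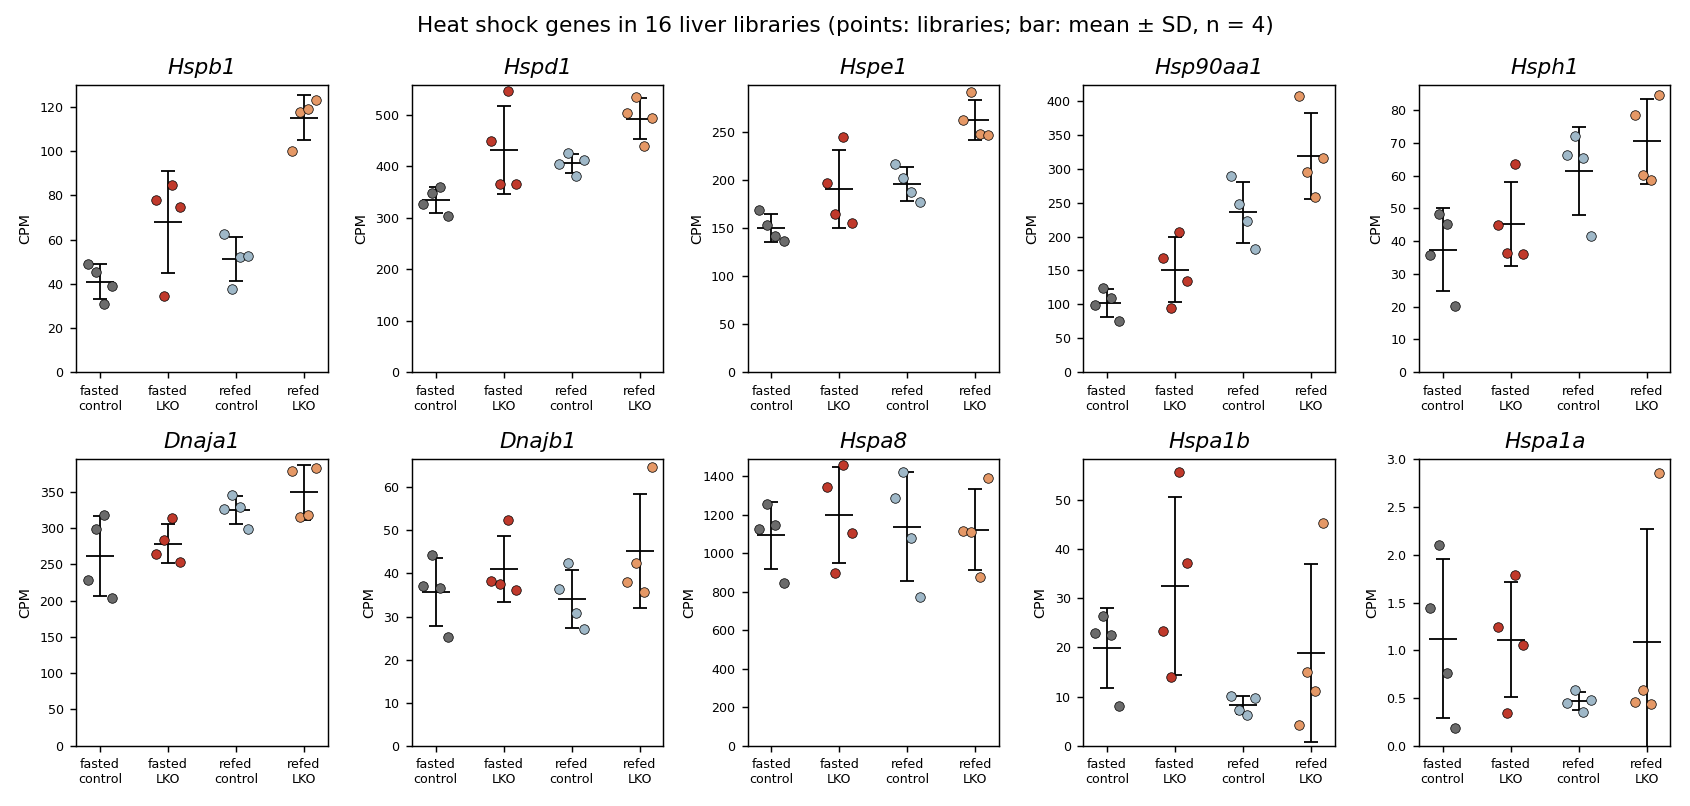
Level of each of the 10 heat shock genes in CPM (vertical axis from 0, a scale of its own per panel) in the 4 groups, with 1 point per library and bars for the mean ± SD (n = 4), the lower arm of Hspa1a in refed LKO ending at 0. The 4 refed LKO libraries of Hspb1 sit between 100.2 and 123 CPM, above the other 12, while Hspa1a and Hspa1b spread widely inside 3 of the 4 groups.

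LKO livers had more Hspb1 RNA than controls in both feeding states. This gene (chr5:135916773-135918417, plus strand, in the coordinates of the deposited tables) encodes the small heat shock protein HSP25. Fasted control libraries held 49.1, 45.1, 30.9 and 38.9 CPM and fasted LKO libraries 78.0, 34.2, 84.9 and 74.8 CPM. Of the fasted LKO libraries 3 stood above every control, and S45 stood among them. Refed control libraries held 62.4, 37.8, 52.1 and 52.6 CPM and refed LKO libraries 100.2, 118, 119 and 123 CPM, with no overlap. Hspb1 rose in LKO by 0.73 ± 0.22 on the log2 scale (SE) when fasted (adjusted p = 0.0418) and by 1.17 ± 0.22 when refed (adjusted p = 0.00904), in the latter from a mean of 51.2 ± 10.1 to 115 ± 10.2 CPM. Leaving out any library of the refed groups left it called, with an adjusted p of 0.0120 to 0.0317. The fasted call was lost without S41, S42, S43, S44, S46 or S47 (adjusted p 0.0645 to 0.127) and was largest without S45, at 0.94 (adjusted p = 0.00138). It was also lost with limma-voom (adjusted p = 0.0760) and in a fit of only the 2 groups compared (adjusted p = 0.106). The genotype effect when refed exceeded that when fasted by 0.44 ± 0.31, a difference that did not pass the test (adjusted p = 0.506).

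Refeeding raised Hspb1 in LKO livers, by 0.76 ± 0.22 (adjusted p = 0.0246), with no overlap between fasted and refed libraries. This call was lost without S53 (adjusted p = 0.0502) or S55 (adjusted p = 0.0609) and in a fit of only the 2 groups (adjusted p = 0.0509). In controls the refeeding difference was 0.32 ± 0.22 (adjusted p = 0.360) and the groups overlapped.

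The mitochondrial chaperonin genes had higher means in LKO livers in both states, and the difference passed for Hspd1 when fasted. Hspd1 (chr1:55116994-55127402, minus strand) and Hspe1 (chr1:55127291-55130466, plus strand) overlap at their starts in the deposited annotation, and reads in the overlap cannot be assigned where counting ignored strand. Hspd1 held 326, 348, 360.4 and 304 CPM in fasted control and 449.6, 366, 546 and 365 CPM in fasted LKO. Every fasted LKO library lay above every fasted control, 2 of them only just. Hspd1 rose in fasted LKO by 0.37 ± 0.12 (adjusted p = 0.0483), a call lost without S40, S41, S42, S43, S44 or S46 (adjusted p 0.0698 to 0.163). The call was also lost with RLE factors, limma-voom, no low count filter or only the 2 groups fitted (adjusted p 0.0510 to 0.130). Refed control libraries held 404, 426, 381 and 411 CPM and refed LKO libraries 502, 534, 439 and 493 CPM, again without overlap, and the difference of 0.28 ± 0.12 did not pass (adjusted p = 0.200). Hspe1 held 169, 153, 142 and 136 CPM in fasted control, 197, 165, 245 and 156 CPM in fasted LKO, 217, 202, 187 and 177 CPM in refed control and 263, 292, 248 and 247 CPM in refed LKO. Its genotype groups overlapped when fasted and not when refed. The LKO differences of Hspe1 were 0.34 ± 0.13 (adjusted p = 0.0840) and 0.42 ± 0.13 (adjusted p = 0.0713), and the fasted difference passed only without S47 (0.43, adjusted p = 0.0338). The refed difference passed with DESeq2 (adjusted p = 0.0284) and with only the 2 groups fitted (adjusted p = 0.0412).

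Hspe1 rose with refeeding in both genotypes, by 0.38 ± 0.13 in controls (adjusted p = 0.0482) and by 0.46 ± 0.13 in LKO (adjusted p = 0.0172), and fasted and refed libraries overlapped in neither. The control call was lost when any of 7 libraries (S40 to S43, S48, S49 or S50) was left out, with an adjusted p of 0.0539 to 0.129, and the LKO call without S47 or S53 (adjusted p 0.0515 and 0.0524). Upper quartile scaling, RLE factors or no low count filter also ended the control call (adjusted p 0.0507 to 0.0695), and a fit of only the 2 groups the LKO call (adjusted p = 0.0526). For Hspd1 the refeeding differences were 0.28 ± 0.12 in controls, where the groups did not overlap (adjusted p = 0.116, or 0.0450 with only the 2 groups fitted), and 0.19 ± 0.12 in LKO, where they did (adjusted p = 0.286, or 0.0394 without S46).

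Hsp90aa1 had the largest refeeding change of the members that passed. The gene (chr12:110657039-110669162, minus strand) encodes the inducible cytosolic HSP90. It held 98.4, 124, 110.1 and 75.4 CPM in fasted control and 290.2, 249, 222 and 182 CPM in refed control. In LKO it held 169, 94.1, 207 and 135 CPM when fasted and 407, 296, 258 and 316 CPM when refed. Refed libraries lay above all fasted libraries of their genotype, and Hsp90aa1 rose by 1.21 ± 0.22 in controls (2.31-fold, adjusted p = 0.00242) and by 1.08 ± 0.22 in LKO (2.11-fold, adjusted p = 0.00281). These calls held in every alternative run, with the log2 change between 1.09 and 1.32 in controls and between 0.91 and 1.27 in LKO when a library was left out. The LKO differences were 0.57 ± 0.22 when fasted (adjusted p = 0.101) and 0.44 ± 0.22 when refed (adjusted p = 0.296), and genotypes overlapped in both states. Without S45, the fasted LKO library with the least Hsp90aa1, the fasted difference was 0.73 and passed (adjusted p = 0.0222).

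Hsph1, which encodes the HSP110 exchange factor of HSP70, was also higher after refeeding but did not pass in either genotype. It held 35.8, 48.4, 45.3 and 20.1 CPM in fasted control and 66.2, 72.0, 65.5 and 41.7 CPM in refed control, where S51 fell inside the fasted range. The LKO libraries ranged from 36.1 to 63.5 CPM when fasted and from 58.8 to 84.5 CPM when refed, where S46 was the single fasted library inside the refed range. Refeeding differences were 0.71 ± 0.25 in controls (adjusted p = 0.0596) and 0.64 ± 0.25 in LKO (adjusted p = 0.0815). Without S41 or S51 the former passed (adjusted p = 0.0422 and 0.0268), and without S46 the latter (0.85, adjusted p = 0.0302). DESeq2 called both (adjusted p = 0.0287 and 0.0480), limma-voom and a filter at a mean of 5 CPM the former (adjusted p = 0.0495 and 0.0497), and a fit of only the 2 groups the latter (adjusted p = 0.0456). Genotype differences were 0.27 and 0.20 on the log2 scale.

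Dnaja1, a J-domain partner that serves both HSP70 and HSP90 clients, had refeeding differences of 0.31 ± 0.13 in controls (adjusted p = 0.112, or 0.0477 without S42) and 0.33 ± 0.13 in LKO (adjusted p = 0.0926). Its libraries ranged from 203 to 318 CPM in fasted control, 299 to 346 in refed control, 253 to 314 in fasted LKO and 315 to 383 in refed LKO, and only the LKO groups did not overlap. Dnajb1, another J-domain partner of HSP70, ranged from 25.2 to 44.2 CPM in fasted control, 36.1 to 52.3 in fasted LKO, 27.1 to 42.4 in refed control and 35.7 to 64.7 in refed LKO, so that all groups overlapped. No difference of Dnajb1 passed, the widest being 0.41 ± 0.20 for LKO when refed (adjusted p = 0.298). Hspa8, the constitutive HSP70, had group means between 1093 ± 174 and 1200.1 ± 249 CPM, and its differences lay between -0.10 and 0.14 in the 4 comparisons of a pair of groups, each with an SE of 0.19.

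**Figure D2:**
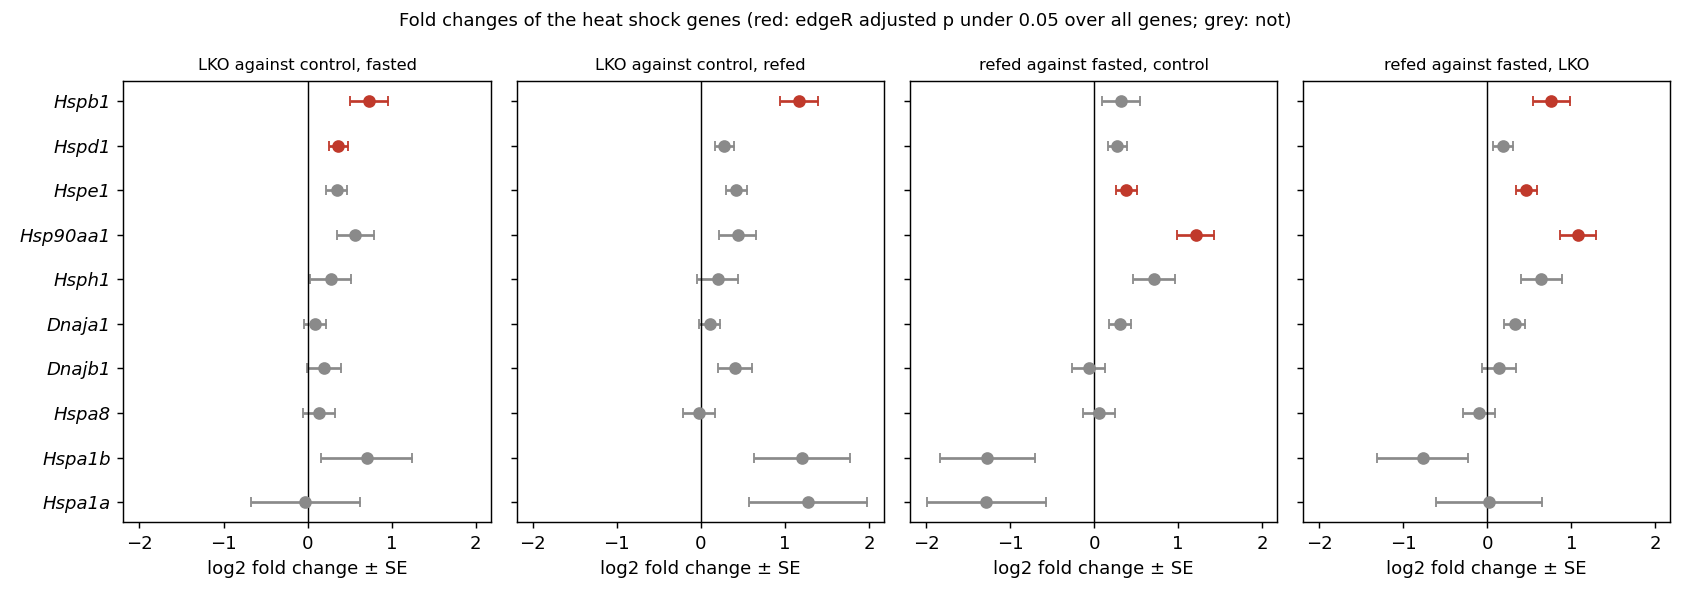
Log2 fold change ± SE (horizontal axis) of the 10 heat shock genes in the 4 comparisons of a pair of groups, red where edgeR's adjusted p over all genes was under 0.05. Hsp90aa1 is called in both refeeding comparisons and Hspb1 in both genotype comparisons, while the intervals of Hspa1a and Hspa1b are several times wider than those of the mitochondrial pair.

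The heat-inducible HSP70 genes were the least even members. Hspa1b (chr17:35175412-35178214, minus strand) held 23.0, 26.3, 22.5 and 8.03 CPM in fasted control and 10.2, 7.33, 6.29 and 9.64 CPM in refed control. Of the fasted controls only S43 fell inside the refed range. In LKO the libraries held 23.3, 13.9, 55.7 and 37.2 CPM when fasted and 4.30, 14.9, 11.1 and 45.3 CPM when refed, where S55 stood apart from the other 3 libraries. The refeeding difference of Hspa1b was -1.27 ± 0.57 in controls (adjusted p = 0.142, or 0.0266 with only the 2 groups fitted) and -0.77 ± 0.54 in LKO (adjusted p = 0.360). Without S55 the LKO difference was -1.70 and passed (adjusted p = 0.0310), and the LKO difference in the refed state moved from 1.20 ± 0.57 (adjusted p = 0.269) to 0.27 (adjusted p = 0.842). The fasted LKO difference was 0.70 ± 0.54 (adjusted p = 0.444).

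Hspa1a (chr17:35188166-35191132, minus strand) had 285 counts in all 16 libraries together, against 5841 for Hspa1b. It had 3 to 36 counts per library in fasted control, 6 to 32 in fasted LKO, 7 to 11 in refed control and 7 to 66 in refed LKO, the 66 being S55, and none of its differences passed with all libraries. Its averaged refeeding difference of -0.63 ± 0.48 (adjusted p = 0.358) was -1.22 and passed without S55 (adjusted p = 0.0449). Windows of 100 bases from its longest transcript in the GENCODE M21 reference occurred in another gene's transcript in 48.6% of cases, mostly in Hspa1b, so the split of reads between the pair is uncertain. With both genes' counts summed, the LKO difference was 0.67 when fasted (adjusted p = 0.467) and 1.20 when refed (adjusted p = 0.268), and 0.26 when refed without S55 (adjusted p = 0.846). The summed refeeding difference was -1.27 in controls (adjusted p = 0.142) and -0.74 in LKO (adjusted p = 0.384), the latter -1.67 without S55 (adjusted p = 0.0320). Other members also share windows with other genes' transcripts. The share found in any other gene was 47.5% for Hsp90aa1, 42.7% for Hspb1, 31.6% for Hspa8, 26.9% for Hspd1 and 14.8% for Dnaja1. The gene that shared most took 39.6% for Hsp90aa1 (Gm12346), 42.7% for Hspb1 (Hsp25-ps1), 28.9% for Hspa8 (Gm15459), 25.8% for Hspd1 (Hspd1-ps3) and 12.98% for Dnaja1 (Gm15542). These 5 copies held counts equal to 0.568% (Hsp25-ps1, for Hspb1) to 2.39% (Gm15542, for Dnaja1) of the member's counts. Hspe1 shared 0.347% of its windows and Hsph1 and Dnajb1 none.

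Counted together, 2 of the 10 members were called in LKO when fasted, both higher (Hspb1 and Hspd1), where 5.75% of all tested genes were called higher and 6.48% lower. When refed, 1 was called, Hspb1, against 2.28% higher and 1.35% lower among all genes. The median log2 difference of the members was 0.31 when fasted and 0.41 when refed, beside 0.02 and -0.01 over all genes tested. Their libraries did not overlap by genotype for 1 member when fasted, Hspd1, and for 3 when refed, Hspb1, Hspd1 and Hspe1, in each case higher in LKO. Of all genes, 8.30% and 6.70% did not overlap in that direction, and the fasted count is close to its share. With refeeding 2 members were called in controls (Hsp90aa1 and Hspe1) and 3 in LKO (Hspb1, Hsp90aa1 and Hspe1), all higher, where 7.79% and 9.28% of all genes were called higher and 7.65% and 8.78% lower. Fasted and refed libraries did not overlap for 3 members in controls (Hsp90aa1, Hspd1 and Hspe1) and for 4 in LKO (Hspb1, Hsp90aa1, Hspe1 and Dnaja1), again higher after refeeding. Of all genes, 10.4% and 10.6% did not overlap in that direction. No member was called for a difference of the LKO effect between feeding states by edgeR, DESeq2 or limma-voom, none had an unadjusted edgeR p under 0.05, and 0.538% of all genes were called. The genotype and refeeding comparisons share groups, so the 4 counts are not independent.

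Averaging each effect over the other factor, a pair of contrasts added after the data were seen, uses all 16 libraries. LKO against control then called 4 members, all higher, Hspb1 (0.95 ± 0.16, adjusted p = 8.5e-04), Hspe1 (0.38 ± 0.09, adjusted p = 0.00859), Hspd1 (0.32 ± 0.08, adjusted p = 0.0148) and Hsp90aa1 (0.50 ± 0.15, adjusted p = 0.0378), where 6.71% of all genes were called higher. Hsp90aa1 lost this call when any of 10 single libraries was left out (adjusted p 0.0529 to 0.0846), and the other 3 kept it in every alternative. Refeeding called 6 members, all higher, where 14.4% of all genes were called higher. Hsp90aa1 rose by 1.14 ± 0.15 (adjusted p = 7.0e-05), Hspe1 by 0.42 ± 0.09 (adjusted p = 0.00212), Hsph1 by 0.68 ± 0.17 (adjusted p = 0.00806), Dnaja1 by 0.32 ± 0.09 (adjusted p = 0.0152), Hspb1 by 0.54 ± 0.16 (adjusted p = 0.0165) and Hspd1 by 0.23 ± 0.08 (adjusted p = 0.0424). The call of Hspd1 was lost without any of 12 single libraries (adjusted p 0.0501 to 0.0854) and without the low count filter (adjusted p = 0.0577). Hspa1b had a refeeding difference of -1.02 ± 0.39 (adjusted p = 0.0619), which passed without S43, S45 or S55 (adjusted p 0.00416 to 0.0393).

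The authors' deposited tables hold 1 comparison each, and which libraries entered each fit is not given. They give an adjusted p under 0.05 to 1 member in LKO when fasted (Hspb1) and to 3 when refed (Hspb1, Hspd1 and Hspe1). For refeeding they give it to 5 members in each genotype. In the authors' deposited table for refeeding in controls those are Hsp90aa1, Hspa1b, Hspd1, Hspe1 and Hsph1, with Hspa1b at -1.26 on the log2 scale (authors' adjusted p = 5.7e-04). In the authors' deposited table for refeeding in LKO they are Dnaja1, Hsp90aa1, Hspb1, Hspe1 and Hsph1. For refed LKO the authors' deposited table gives Hspb1 a log2 fold change of 1.17 (authors' adjusted p = 1.9e-12). The share of all genes that pass in the authors' tables was not counted. These member counts therefore have no background to be set beside.

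Single libraries moved many members at once. S46 was the highest of the 4 fasted LKO libraries for 10 of 10 members and S43 the lowest of the fasted controls for 9. Averaged over the members, S46 stood 0.48 above its group mean on the log2 scale, S55 0.48 above, S43 0.56 below (-0.56) and S45 0.50 below (-0.50). S55 was the highest refed LKO library for 7 members. Immediate early genes rise quickly with tissue handling and other stress. The 11 listed summed to 646 CPM in S43, the most of any fasted control, and to 245 in S55, the least of any refed LKO library. In fasted LKO they summed to 484 in S46 and 374 in S45, both inside the group's range of 361 to 544. The part of handling in these deviations was not tested. Across all 16 libraries, the log2 CPM of a member correlated with the mean of the other 9 with a Pearson r of 0.25 for Hspa1b to 0.82 for Hsph1. With group means removed, r ran from 0.36 for Hspb1 to 0.87 for Dnajb1. These libraries share the group structure and their scaling, and the values are descriptions.

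**Figure D3:**
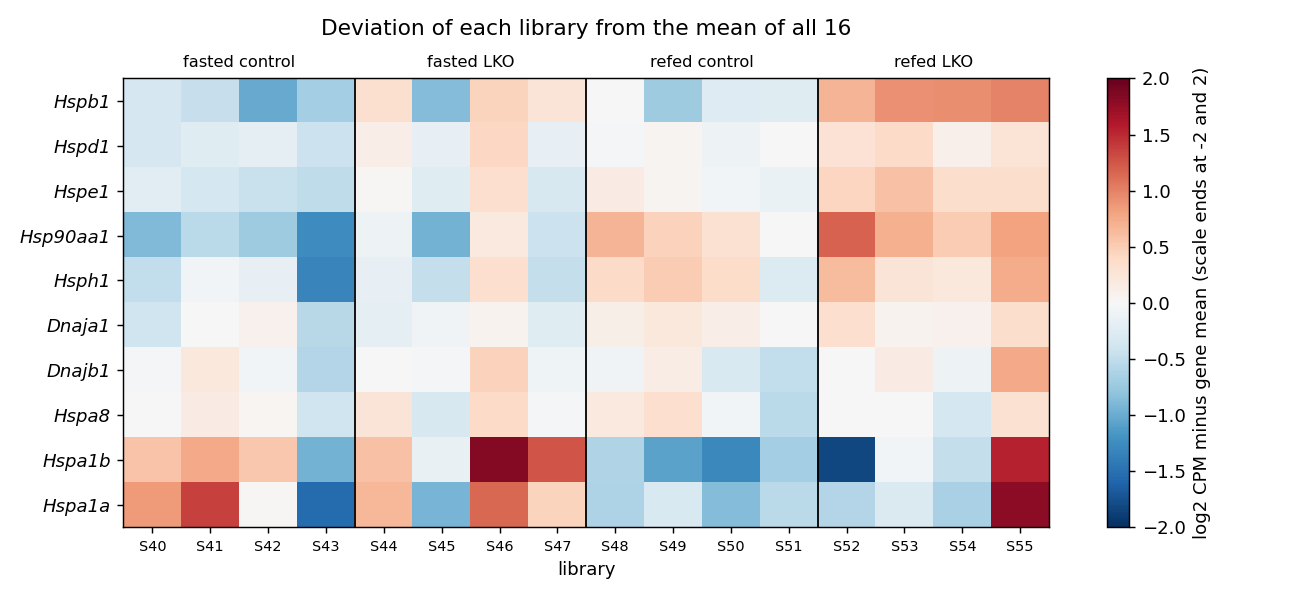
Log2 CPM of each heat shock gene (rows) in each library (columns, grouped) minus the gene's mean over the 16 libraries, with colours ending at -2 and 2. S43 is blue and S46 red through nearly all rows, S55 is the darkest red for Hspa1a and S46 for Hspa1b, and Hspb1 is red through all 4 refed LKO libraries.

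Among 9335 other genes with a mean of at least 5 CPM, the 8 whose log2 CPM most resembled the members' mean pattern over the 16 libraries were Ptges3 (Pearson r = 0.88), Hsp90ab1 (0.87), Rangap1 (0.85), Cct4 (0.84), Cct7 (0.84), Cct3 (0.84), Ahsa1 (0.84) and Hnrnpa2b1 (0.84). Ptges3 and Ahsa1 encode co-chaperones of HSP90, Hsp90ab1 the constitutive HSP90, and the Cct genes subunits of the cytosolic chaperonin TRiC. Hsp90ab1 itself was not called by edgeR in any comparison, with differences of 0.21 and 0.29 for LKO when fasted and refed and of 0.19 and 0.27 for refeeding in controls and LKO. Its refed genotypes did not overlap, at 1067 to 1240 CPM in control and 1327 to 1533 in LKO. Averaged over states, its LKO difference of 0.25 (edgeR adjusted p = 0.0645) passed with DESeq2 (adjusted p = 0.0339) and not with limma-voom (adjusted p = 0.0610), and its averaged refeeding difference of 0.23 (edgeR adjusted p = 0.0585) passed with both (adjusted p = 0.0388 and 0.0436).

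The counts of the gene lists that follow stand beside these shares of all tested genes called by edgeR. With refeeding, 7.79% were called higher and 7.65% lower in controls, and 9.28% and 8.78% in LKO. With LKO, 5.75% were called higher and 6.48% lower when fasted, and 2.28% and 1.35% when refed. Of 29 tested genes for other cytosolic chaperones and co-chaperones, 10 rose and 2 fell with refeeding in controls, and 9 rose and none fell in LKO, with medians of 0.11 and 0.13. Among them, Fkbp4 rose by 0.70 in controls and 1.12 in LKO, Stip1, which hands clients from HSP70 to HSP90, by 0.75 and 0.81, and Chordc1 by 0.73 and 0.65. With LKO when fasted, 2 of the 29 rose, Hspa4 (0.32) and Ptges3 (0.29), and 2 fell, Fkbp4 (-0.40) and Stub1 (-0.27). These fasted counts are close to the shares of all genes. When refed none was called by edgeR or limma-voom and 1 by DESeq2, with 6 at an unadjusted edgeR p under 0.05. Of the 8 TRiC genes, 3 rose in fasted LKO (Cct3, Cct8 and Cct6a). None was called in refed LKO by edgeR, DESeq2 or limma-voom (2 at an unadjusted edgeR p under 0.05). With refeeding edgeR called 5 higher in controls and 1 in LKO (Cct8). DESeq2 and limma-voom each called 5 in controls and 3 in LKO, and 7 had an unadjusted edgeR p under 0.05 in each genotype. All 8 differences were above 0 in each of these comparisons, with medians of 0.18 to 0.37. None of the 8 was called for a difference of the LKO effect between feeding states by edgeR, DESeq2 or limma-voom.

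Of 12 other mitochondrial chaperones and proteases, edgeR called 2 in fasted LKO, both higher. Hspa9, the matrix HSP70, rose by 0.33 (301 to 378 CPM, adjusted p = 0.0154). Grpel2, a nucleotide exchange factor of Hspa9, rose by 0.89 (40.5 to 75.2 CPM, adjusted p = 0.0127). DESeq2 called 5 of the 12 in this comparison and limma-voom 3, with 5 at an unadjusted edgeR p under 0.05. None was called in refed LKO by edgeR, DESeq2 or limma-voom, with 2 at an unadjusted edgeR p under 0.05. With refeeding Hspa9 rose in controls by 0.35 (adjusted p = 0.0103), together with Yme1l1, while Lonp1, a matrix protease, fell by 0.23. In LKO Grpel2 fell with refeeding by 1.76 (adjusted p = 8.2e-05) and Clpx, the unfoldase of the ClpXP protease, by 1.21 (adjusted p = 0.0105). Clpx was uneven in fasted LKO, at 161 ± 88.3 CPM (SD, n = 4) with a range of 87.3 to 289.

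Of the heat shock factor genes, Hsf1, the factor of the heat response, was not called by edgeR in any comparison, and its differences between pairs of groups lay between -0.16 and 0.11. Hsf2 rose in fasted LKO by 1.03 ± 0.18 (13.5 to 27.4 CPM, adjusted p = 0.00190) and with refeeding in controls by 0.57 (adjusted p = 0.0409), and Hsf4 fell in fasted LKO by 0.47 (adjusted p = 0.0329). The cold-induced RNA-binding protein gene Cirbp fell with refeeding by 0.58 in controls (adjusted p = 0.0209) and by 0.83 in LKO (adjusted p = 0.00180), whereas Rbm3, also induced by mild cold, was not called by edgeR in any comparison. Of the 12 clock genes tested, 2 rose (Cry1 and Per2) and 2 fell (Nr1d1 with Dbp in controls, with Clock in LKO) in each refeeding comparison, Cry1 by 2.61 in controls and 2.20 in LKO. Of 11 immediate early genes, 3 fell with refeeding in controls (Fos, Zfp36 and Junb) and 1 in LKO (Junb, by 1.54), and none was called between genotypes by edgeR, DESeq2 or limma-voom, with 2 (fasted) and 1 (refed) at an unadjusted edgeR p under 0.05. The part of the hour or of handling in the members' refeeding differences was not tested.

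The chaperones of the endoplasmic reticulum differed between genotypes in the other direction from the called members. In LKO, 11 of 14 fell when fasted and 7 when refed, with none higher and medians of -0.66 and -0.49. Hspa5, the HSP70 of that compartment, fell by 0.96 in fasted LKO (656 to 338 CPM, adjusted p = 0.00980), and Sdf2l1, its cofactor, by 1.83. With refeeding 10 of the 14 rose in controls and 13 in LKO, with medians of 0.77 and 0.97, and Hsp90b1, the HSP90 of that compartment, rose by 0.80 and 0.84, beside the 1.21 and 1.08 of cytosolic Hsp90aa1.

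**Figure D4:**
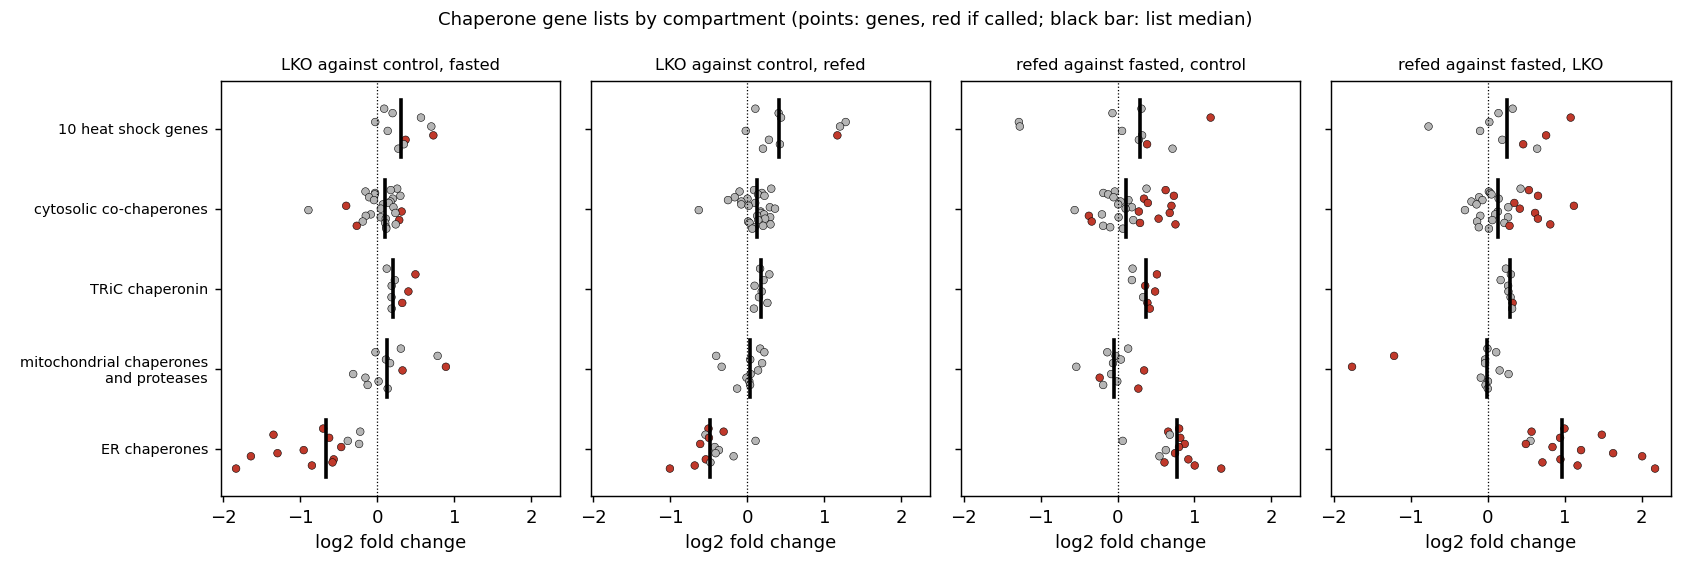
Log2 fold change (horizontal axis) of each tested gene of 5 chaperone lists (rows) in the 4 comparisons of a pair of groups, with 1 point per gene, red where called by edgeR, and a black bar at the list's median. Medians of the heat shock genes are 0.31 and 0.41 for LKO against control, whereas those of the chaperones of the endoplasmic reticulum are -0.66 and -0.49, and both lists have medians above 0 for refeeding.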

How the data were processed

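Liver poly-A RNA was sequenced from 16 samples. The submitters' processing notes name HISAT2 2.0.5 and the build mm39 with no role; the counting tool, its use of strand and the annotation are not given in the sources used here, although per the labels' protocols libraries were built with dUTP. The authors deposited 4 tables, 1 for each pair of groups, with raw counts per gene, gene lengths in bases, and the authors' own log2 fold changes and p-values, deposited without the name of a tool. Columns were assigned to groups by the group heading shared by the 2 tables that hold a library. The tables were joined on gene identifier (25803 genes, 0 counts differing between tables), and 3148 genes absent from both tables of a library were set to 0 there. The tables hold 64 more columns with a value per library, which entered no step.

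Counts were fitted with edgeR 4.0.16 in R 4.3.3 (filterByExpr over the 4 groups, TMM, quasi-likelihood test, all 16 libraries in 1 model, Benjamini-Hochberg over 14488 genes; common biological coefficient of variation 0.185), after the script was tested on simulated data. Alternatives were upper quartile and RLE scaling, no filter, a filter at a mean of 5 CPM, DESeq2 1.42.0, limma-voom 3.58.1, fits of only the 2 groups compared, each library left out, and Hspa1a and Hspa1b summed. The members, gene lists and motifs were chosen with earlier results of these data known. Named genes were the 10 members, Cpt1a, per list up to 4 called genes of smallest adjusted p in each comparison, Hsf1, Cirbp, Rbm3, Hsp90ab1, Hspa9 and the 8 genes of most similar pattern. Promoters came from RefSeq on GRCm38.p6 and were not mixed with the coordinates of the deposited tables.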

Additional observations from a re-analysis of the deposited data

Results flagged for a closer look

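In 44 sets of 4 libraries (the 10 heat shock genes and Cpt1a in each group), 2 held a library far from the other 3, where chance flags about 1 set in 20. Hspa1a was at 2.86 CPM in S55, a refed LKO library, and its gap to the next library made up 0.936 of the group's whole range. Dnajb1 was at 52.3 CPM in S46, a fasted LKO library, with a gap of 0.866 of the range. No heat shock gene was called for a difference of the LKO effect between feeding states.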

How the results depend on the processing

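The count of called heat shock genes in fasted LKO was 2, and became 1 with RLE factors or no low count filter and 0 with limma-voom or a fit of only the 2 groups compared. Over all genes, in both directions, 1772 of 14488 were called in the main fit, 1776 with RLE factors and 1810 with limma-voom. No filter gave 1476 of 25803, and only the 2 groups 1249 of 13839. In refed LKO the count of heat shock genes was 1, and 2 with DESeq2 or only the 2 groups. Calls over all genes were 526 of 14488 in the main fit, 924 with DESeq2 and 395 of 13770 with only the 2 groups. For refeeding in controls the count of heat shock genes was 2, and 1 with upper quartile scaling, RLE factors or no filter, and 4 with only the 2 groups. All-gene calls were 2238 of 14488 in the main fit, 2281 with upper quartile scaling and 2231 with RLE factors. They were 1682 of 25803 with no filter and 1982 of 13670 with only the 2 groups. The counts for refeeding in LKO (3), for the difference of the LKO effect (0) and for both averaged effects (4 and 6) stayed within 1.5 times in those settings that were run. In the same order, these settings called 2121 to 2896, 69 to 458, 1748 to 2318 and 3454 to 4299 of 9344 to 25803 genes tested. Leaving out each library gave 0 to 3 (fasted LKO), 1 to 1 (refed LKO), 1 to 3 (refeeding in controls), 1 to 5 (refeeding in LKO), 0 to 0 (difference), 3 to 4 (averaged LKO effect) and 5 to 7 (averaged refeeding). In the same order, those fits called 1048 to 1985, 197 to 517, 1220 to 2483, 1795 to 2448, 8 to 282, 1550 to 2187 and 3454 to 4213 of 14685 to 14774 genes tested. The sign of Hspa1a turned to 0.16 in fasted LKO with limma-voom, and to -0.011 with DESeq2 and -0.19 with limma-voom for refeeding in LKO. That of Dnaja1 in the difference of the LKO effect turned to -0.0062 with upper quartile scaling and -0.010 with limma-voom. These 5 values passed no test. With a library left out, these values crossed 0 without passing. In fasted LKO, Hspa1a ran from -0.37 to 0.45 and Dnaja1 from -0.015 to 0.18. In refed LKO, Hspa8 ran from -0.17 to 0.10. For refeeding in controls, Hspa8 ran from -0.065 to 0.21 and Dnajb1 from -0.20 to 0.053. For refeeding in LKO, Hspa1a ran from -1.16 to 0.35, Hspa8 from -0.22 to 0.0086 and Dnajb1 from -0.084 to 0.28. For the difference of the LKO effect, Hspa1b ran from -0.43 to 0.89, Hsp90aa1 from -0.29 to 0.059, Hsph1 from -0.22 to 0.14, Dnaja1 from -0.081 to 0.12, Dnajb1 from -0.018 to 0.35, Hspd1 from -0.16 to 0.046 and Hspe1 from -0.0070 to 0.22. For the averaged LKO effect Hspa8 ran from -0.018 to 0.12, and for averaged refeeding Hspa8 from -0.081 to 0.055 and Dnajb1 from -0.074 to 0.11. The cause of these shifts was not tested. Of 507 single-gene values under settings other than a left-out library, 481 kept direction and side of the threshold, 5 changed sign, 12 lost the call and 9 gained it. Of 800 with a library left out, 699 kept both, 43 changed sign, 45 lost the call and 13 gained it. The depth limits Hspa1a, with 3 to 66 counts per library, and 4 libraries per group limit all members. No paired analysis was possible because the count columns carry no replicate number.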
